A study of Rattus norvegicus with 11 samples.

Results

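Mitochondrial ribosomal protein genes are the nuclear genes that encode the protein part of the ribosome inside mitochondria. They were taken here as every gene of the table whose symbol is Mrpl or Mrps followed by a digit, which gave 68 of 16811 genes, 41 Mrpl and 27 Mrps. Of these, 67 (40 Mrpl and 27 Mrps) reached a scaled count of 10 in 3 or more libraries and were tested, and Mrpl40 was listed at 0 in every library. The tissue was the dorsal root ganglion, the cluster of sensory neuron cell bodies beside the spinal cord, of Sprague-Dawley rats, and its RNA was sequenced in 11 libraries of 3 groups. The Sham group (n = 4) is described in the labels as a control from the right side. The SNL group (n = 4) had a spinal nerve ligation, an injury of the nerve next to the ganglion that models neuropathic pain, and came from the left side. The SNL plus UNC0638 group (n = 3) was also ligated, came from the left side and received UNC0638, per the labels after the ligation. This compound inhibits the histone methyltransferases G9a (Ehmt2) and GLP (Ehmt1). The labels give no sex, age, time after ligation or dose, and no group received UNC0638 without ligation. Side and ligation cannot be told apart, nor can the RNA extraction reagent (Trizol or RNeasy, not given for each sample) be told apart from the group. Nothing says whether the replicates of a group were separate animals, and p-values measure the spread between these libraries.

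Mitochondria translate the few messenger RNAs of their own genome, which encode core subunits of the respiratory chain and of ATP synthase, on ribosomes that differ from those of the cytosol. The ribosomal RNA of these ribosomes is transcribed inside the organelle, while all of their proteins are made in the cytosol and imported. Mrpl symbols stand for proteins of the large subunit, which forms the peptide bond, and Mrps symbols for those of the small subunit, which reads the messenger RNA, with the exceptions Mrps18a, Mrps30 and Mrps36 described further on. Sensory neurons are long cells with a high demand for ATP, and mitochondrial function in them has been studied in nerve injury and neuropathic pain.

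Values are scaled counts, which are the authors' read counts per gene after division by 1 factor per library, and differences are log2 fold changes of the scaled count plus 1 from limma. A gene was called higher or lower when its Benjamini-Hochberg adjusted p over 12085 genes was under 0.05. Totals lay between 9450045 and 11347920 per library and the estimated reads behind them between 6127896 and 24367789. All 11 sensory neuron markers measured (among them Tubb3, Prph and Avil) were above 0 in every library. Replicate 3 of Sham and replicate 3 of SNL each had most of their group's lowest member values (56 and 44 of 67 members), and replicate 1 of SNL plus UNC0638 had a summed level of skeletal muscle markers of 77295, against 148 to 547 in the other 10 libraries.

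Transcripts of the mitochondrial ribosome were lower after ligation and lower again in the ligated ganglia that received UNC0638. The mean over the 67 tested members of log2(scaled count + 1), set to 0 for the Sham mean of each gene, was 0.03, 0.18, -0.31 and 0.10 in the Sham libraries. It was -0.28, -0.38, -0.48 and -0.30 in the SNL libraries and -0.60, -0.84 and -0.73 in the SNL plus UNC0638 libraries. All 3 SNL plus UNC0638 libraries lay below all 4 SNL libraries, and replicate 3 of Sham lay within the range of SNL. The members' share of a library's total moved with this level. It was 0.261%, 0.289%, 0.199% and 0.272% in Sham, 0.224%, 0.203%, 0.186% and 0.222% in SNL, and 0.184%, 0.161% and 0.174% in SNL plus UNC0638. The group means were in the order Sham, SNL, SNL plus UNC0638, from high to low, for 60 of 67 members.

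**Figure D1:**
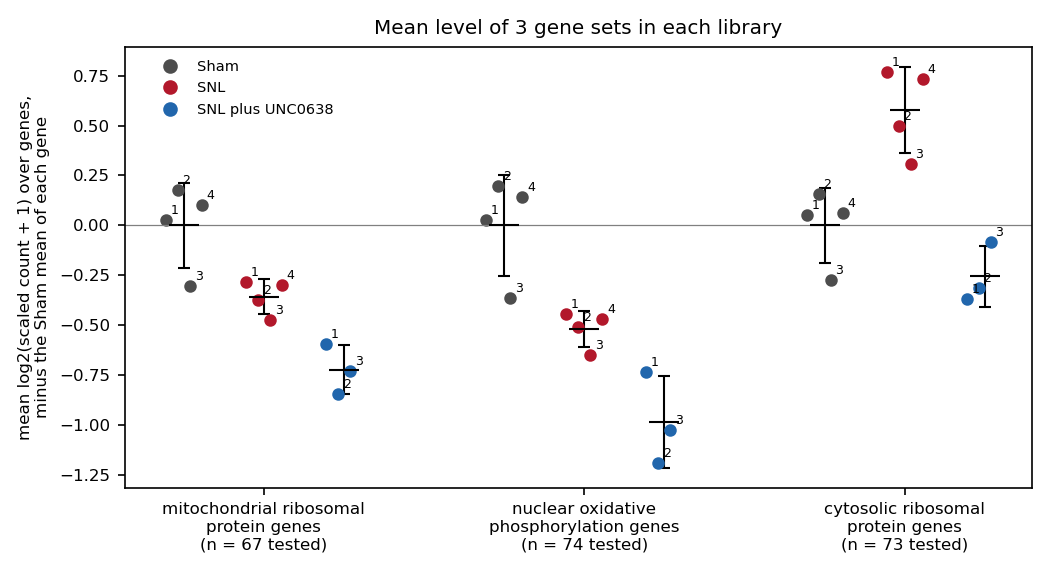
Mean over the tested genes of log2(scaled count + 1) minus each gene's Sham mean (y axis), for 67 mitochondrial ribosomal, 74 nuclear oxidative phosphorylation and 73 cytosolic ribosomal protein genes (x axis). Points are libraries with their replicate number, bars are the mean and SD of a group; the mitochondrial ribosomal genes went from 0.03, 0.18, -0.31 and 0.10 in Sham to between -0.48 and -0.28 in SNL and between -0.84 and -0.60 in SNL plus UNC0638.

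Nuclear genes of oxidative phosphorylation (Nduf, Sdh, Uqcr, Cyc1, Cox and Atp5 symbols) are the partners of the mitochondrially made subunits, and their level per library had the same order of groups. It lay between -0.36 and 0.20 in Sham, between -0.65 and -0.45 in SNL and between -1.19 and -0.74 in SNL plus UNC0638. Genes of the cytosolic ribosome (Rpl and Rps symbols) moved otherwise: their level was between -0.27 and 0.16 in Sham, between 0.31 and 0.77 in SNL and between -0.37 and -0.08 in SNL plus UNC0638. Replicate 3 was the lowest Sham library and the lowest SNL library in all 3 gene groups.

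With ligation alone, 34 of 67 members fell and 1 rose, beside 23.4% of all tested genes lower and 24.8% higher in this comparison. The median log2 fold change of the members was -0.38, with the middle 50% between -0.51 and -0.27, where the median of all tested genes was -0.00. The sign was negative for 65 of 67 members. The 4 SNL libraries lay below all 4 Sham libraries for 20 members, beside 21.2% of all tested genes. The largest decreases among these were in Mrpl1, Mrpl44, Mrps30, Mrpl2, Mrps7 and Mrps15. The count moved with single libraries: it was 48 without replicate 3 of Sham and 16 to 22 without replicate 1, 2 or 4 of Sham or replicate 2 or 3 of SNL, and it was 18 with upper-quartile scaling.

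Mrpl44, a large subunit protein of the ribonuclease III family, had scaled counts of 369, 385, 368 and 427 in the Sham libraries and 279, 252, 255 and 255 in the SNL libraries. Every SNL library was below every Sham library, and the log2 fold change was -0.57 (SE 0.10, adjusted p = 0.000903). Mrps7, which sits in the head of the small subunit and binds its ribosomal RNA, had groups that did not overlap either. Its scaled counts were 950.2, 1136, 816 and 902 in Sham and 649, 631, 607 and 673 in SNL, a log2 fold change of -0.56 (SE 0.11, adjusted p = 0.00161). Mrpl2, a protein next to the site where the peptide bond forms, went from 281, 261, 206 and 277 in Sham to 182, 171, 170.4 and 159 in SNL. The groups did not overlap, and the log2 fold change was -0.57 (SE 0.14, adjusted p = 0.00476).

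Mrpl1, a protein of the stalk on the side where spent transfer RNA leaves, had scaled counts of 312, 366, 224 and 328 in Sham and 209, 189, 189.97 and 183 in SNL. The lowest Sham library, replicate 3, was still above the highest SNL library, and the log2 fold change was -0.65 (SE 0.17, adjusted p = 0.00752). Mrps30 carries a small subunit symbol but is a protein of the large subunit. It had 395, 414, 269.6 and 395 in Sham and 238, 249, 240.3 and 239 in SNL, with a spread in SNL of 5.30 (SD, n = 4), and a log2 fold change of -0.59 (SE 0.15, adjusted p = 0.00683). Replicate 3 was the low library of Sham for this gene and the groups did not overlap. Mrps15, a small subunit protein that binds ribosomal RNA directly, had 551, 667, 559 and 644 in Sham and 401, 396, 451 and 398 in SNL. All SNL libraries were lower, with a log2 fold change of -0.55 (SE 0.12, adjusted p = 0.00310). These 6 genes were called in every fit that left out 1 library, as were 7 others of the 35 called (Mrpl17, Mrpl19, Mrpl21, Mrpl45, Mrpl51, Mrpl55 and Mrps34).

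Among the members with the highest scaled counts, Mrpl17, a protein near the exit of the peptide tunnel, had 1664, 1664, 1365 and 1762 in Sham and 1084, 1219, 1127 and 1037 in SNL. Its log2 fold change was -0.53 (SE 0.14, adjusted p = 0.00769), with no overlap of the groups. Mrpl45, which holds the ribosome at the inner membrane, went from 780.00 ± 98.96 (SD, n = 4) in Sham to 563 ± 13.3 (SD, n = 4) in SNL, a log2 fold change of -0.46 (SE 0.12, adjusted p = 0.00686). Mrpl51 went from 899.8 ± 152 (SD, n = 4) to 634 ± 62.8 (SD, n = 4), a log2 fold change of -0.49 (SE 0.14, adjusted p = 0.0113), with replicate 3 of Sham inside the range of SNL. Mrps18a went from 649 ± 120.3 (SD, n = 4) to 448 ± 43.9 (SD, n = 4), a log2 fold change of -0.52 (SE 0.16, adjusted p = 0.0183), and its call was lost without replicate 2 or replicate 4 of Sham.

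**Figure D2:**
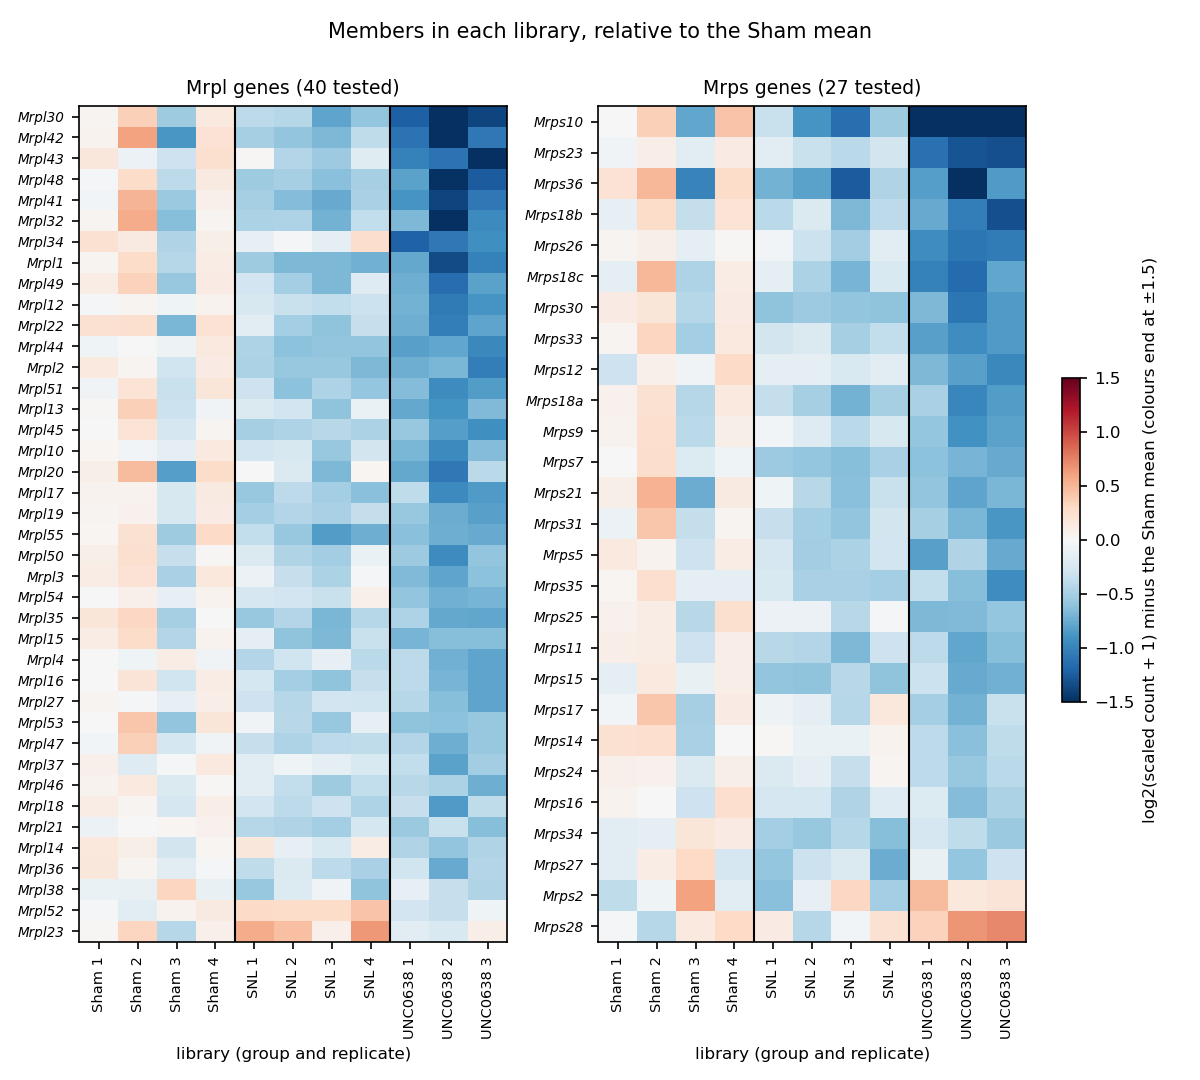
Colour shows log2(scaled count + 1) minus the Sham mean of the gene (blue lower, red higher, colours end at ±1.5) for the 40 tested Mrpl and 27 tested Mrps genes (rows, from the lowest to the highest difference between SNL plus UNC0638 and Sham) in the 11 libraries (columns). Blue deepens from SNL to SNL plus UNC0638 in most rows; Sham replicate 3 is blue in most rows, and Mrpl23, Mrpl52, Mrps2 and Mrps28 at the bottom do not follow the others.

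UNC0638 given after ligation went with a further decrease in part of the genes. Against SNL, 18 of 67 members fell and 0 rose in limma, beside 14.3% of all tested genes lower and 13.5% higher. At an unadjusted p under 0.05 the members lower numbered 31 and those higher 1, beside 21.3% and 21.02% of all tested genes, and with limma-voom 18 were lower and 0 higher. The median log2 fold change was -0.32 over the members and 0.01 over all tested genes, and 62 of 67 members had a negative sign. The 3 SNL plus UNC0638 libraries lay below all 4 SNL libraries for 35 members, beside 19.9% of all tested genes. Mrps10, Mrpl34, Mrpl30, Mrpl43, Mrps23 and Mrps26 had the largest decreases. The count of 18 was 9 to 11 without replicate 1, 2 or 4 of SNL or replicate 2 or 3 of SNL plus UNC0638, and 28 without replicate 3 of Sham, which takes part through the shared estimate of the spread. It was 34 without replicate 3 of both Sham and SNL, and 45 when replicate 1 of SNL plus UNC0638 was left out as well. All genes called, either way, also rose, from 3356 to 5341 and 5220 in these fits.

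Mrps23, a small subunit protein found in mitochondrial but not in bacterial ribosomes, had the smallest p of all members. Its scaled counts were 632, 706, 583 and 717 in Sham, 583, 521, 497 and 541 in SNL and 301, 266 and 263 in SNL plus UNC0638. The SNL plus UNC0638 libraries lay far below both other groups, while SNL and Sham overlapped, with the highest SNL value of 583.2 beside the lowest Sham value of 582.8. Between SNL plus UNC0638 and SNL the log2 fold change was -0.95 (SE 0.11, adjusted p = 0.000465). Mrps10, a protein of the small subunit's head, had the largest log2 fold change and low values. It had 129, 166, 74.8 and 174 in Sham, 103, 69.4, 58.6 and 89.4 in SNL and 28.7, 30.9 and 33.5 in SNL plus UNC0638, from 20 to 226 estimated reads per library. All SNL plus UNC0638 libraries were under 58.6, the lowest SNL value, and the log2 fold change against SNL was -1.31 (SE 0.29, adjusted p = 0.00782). Mrps26 went from 354, 292, 254 and 328 in SNL to 191, 172 and 175 in SNL plus UNC0638. The groups did not overlap, and the log2 fold change was -0.76 (SE 0.13, adjusted p = 0.00240).

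Mrpl34 is a small protein of the large subunit that is shared with bacterial ribosomes. It had 218, 204, 136 and 198 in Sham, 170.2, 183, 168 and 224 in SNL and 79.8, 88.2 and 98.04 in SNL plus UNC0638. Sham and SNL overlapped almost fully, and all SNL plus UNC0638 libraries were lower, with a log2 fold change against SNL of -1.06 (SE 0.18, adjusted p = 0.00242). Mrpl30, another large subunit protein with a bacterial counterpart, had 332, 415, 223 and 357 in Sham, 245, 240.1, 186 and 215 in SNL and 138, 77.4 and 124 in SNL plus UNC0638. Its log2 fold change against SNL was -0.999 (SE 0.24, adjusted p = 0.0104), and SNL plus UNC0638 lay wholly below both other groups. Mrpl43, a large subunit protein without a bacterial counterpart, had 157, 114, 106 and 137 in SNL and 76.2, 71.2 and 51.6 in SNL plus UNC0638. These did not overlap, and the log2 fold change was -0.95 (SE 0.20, adjusted p = 0.00686). All 6 genes kept their call in every fit without 1 library, as did Mrpl12, Mrpl52 and Mrps12, which makes 9 of the 18.

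Mrpl10 and Mrpl12 form the flexible stalk of the large subunit that recruits the translation factors, and Mrpl12 has also been reported to bind the mitochondrial RNA polymerase. Mrpl12 had scaled counts of 709, 748, 695 and 756 in Sham, 616, 576, 561 and 582 in SNL and 445, 348 and 393 in SNL plus UNC0638. The 3 groups did not overlap with each other. The log2 fold change was -0.32 (SE 0.10, adjusted p = 0.0201) with SNL against Sham and -0.57 (SE 0.11, adjusted p = 0.00357) with SNL plus UNC0638 against SNL. The first of these calls was lost without replicate 4 of Sham and with upper-quartile scaling. Mrpl10 had 639.9, 609, 570.3 and 693 in Sham, 514, 531, 423 and 518 in SNL and 390.1, 323 and 399 in SNL plus UNC0638, again with no overlap of the groups. Its log2 fold change was -0.34 (SE 0.12, adjusted p = 0.0292) with ligation and -0.42 (SE 0.12, adjusted p = 0.0280) with UNC0638 after ligation. The first call was lost without replicate 1 or 4 of Sham or replicate 3 of SNL, and the second without replicate 1, 2 or 4 of SNL or replicate 2 of SNL plus UNC0638.

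**Figure D3:**
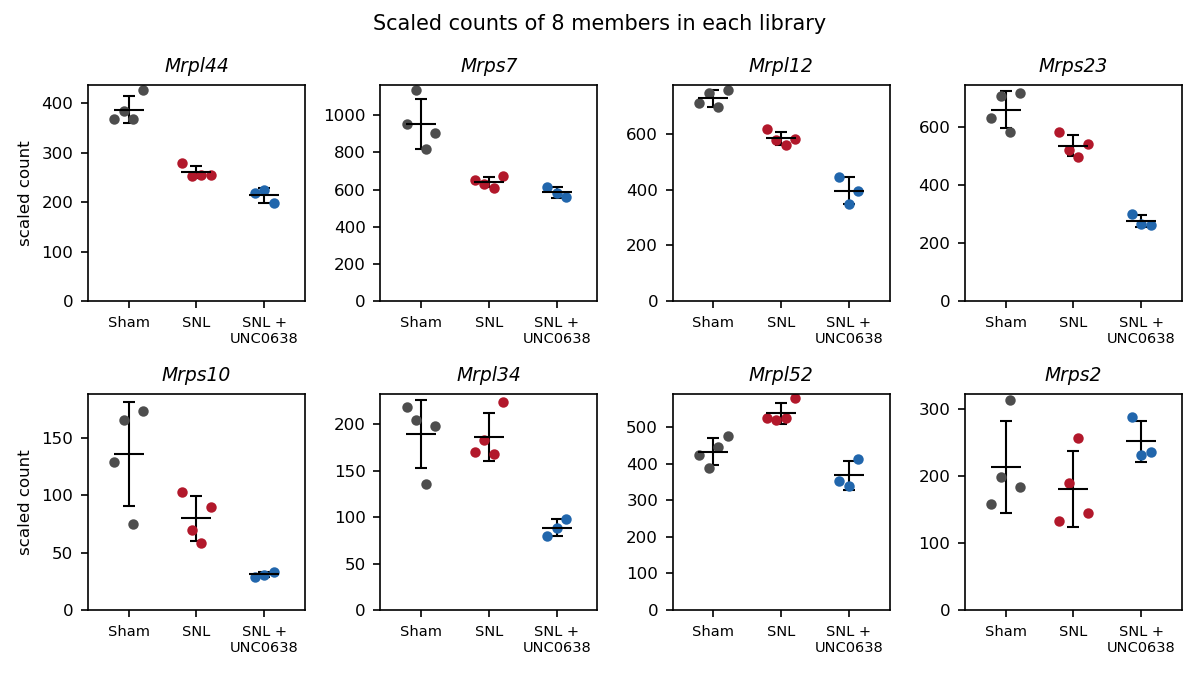
Scaled counts (y axis, from 0) of 8 members in each library, by group (x axis); points are libraries, the wide bar is the group mean and the error bars its SD. Mrpl44 and Mrps7 step down with ligation, Mrpl12, Mrps23 and Mrps10 are lowest in SNL plus UNC0638, Mrpl34 is lower in SNL plus UNC0638 alone, Mrpl52 is highest in SNL and the groups of Mrps2 overlap.

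Against Sham, the ligated ganglia with UNC0638 had 60 of 67 members lower and 0 higher in limma, beside 26% of all tested genes lower and 25.5% higher. At an unadjusted p under 0.05 these numbers were 61 and 1 (28.9% and 28.8% of all tested genes), and with limma-voom 59 and 0. The median log2 fold change was -0.69, where that of all tested genes was -0.01. The SNL plus UNC0638 libraries lay below all Sham libraries for 54 members, beside 24.9% of all tested genes. Of the 60 calls, 49 held in every fit without 1 library. This comparison shares its libraries with the others, and its values are given beside them. The 7 members that were not called were Mrpl23, Mrpl38, Mrpl52, Mrps2, Mrps17, Mrps27 and Mrps28.

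The lowest log2 fold change against Sham was that of Mrps10, -2.03 (SE 0.29, adjusted p = 0.000311), followed by Mrpl30 with -1.55 (SE 0.24, adjusted p = 0.000414). Mrpl42, a large subunit protein, had 294, 428, 154 and 327 in Sham, 199, 187, 177 and 217 in SNL and 131, 91.3 and 134 in SNL plus UNC0638. All SNL plus UNC0638 libraries were below all others, replicate 3 of Sham was below all SNL libraries (154 against 177 and more), and the log2 fold change against Sham was -1.26 (SE 0.28, adjusted p = 0.00332). Mrps23 had a log2 fold change of -1.25 (SE 0.11, adjusted p = 4.3e-05) and Mrpl43 one of -1.23 (SE 0.20, adjusted p = 0.000647). Mrpl48, a protein at the top of the large subunit, had 757, 929, 587 and 845 in Sham, 531, 544, 497 and 542 in SNL and 441, 275 and 322 in SNL plus UNC0638. The 3 groups did not overlap, and SNL plus UNC0638 against Sham gave -1.18 (SE 0.18, adjusted p = 0.000408). It was also called in both steps, with -0.54 (SE 0.16, adjusted p = 0.0178) for ligation and -0.64 (SE 0.18, adjusted p = 0.0217) for UNC0638 after ligation. The first of these calls was lost without replicate 2 or 4 of Sham, and the second without replicate 1 or 2 of SNL or replicate 2 or 3 of SNL plus UNC0638.

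**Figure D4:**
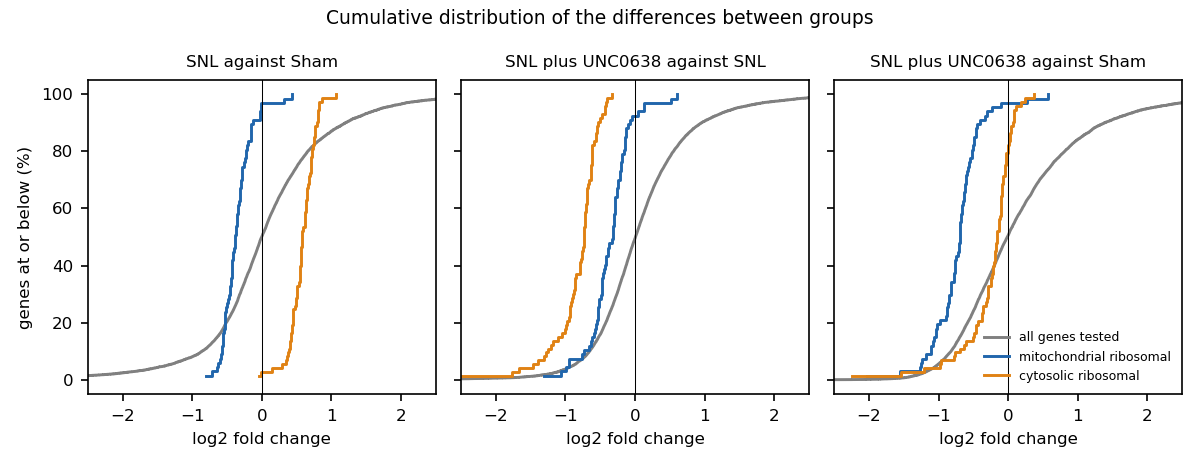
Cumulative share of genes (y axis, percent) at or below a log2 fold change (x axis) in the 3 comparisons, for all 12085 tested genes (grey), 67 mitochondrial ribosomal genes (blue) and 73 cytosolic ribosomal genes (orange). The blue medians are -0.38, -0.32 and -0.69, and the orange medians 0.58, -0.73 and -0.16, where those of all genes are -0.00, 0.01 and -0.01.

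Some members were called in both steps, SNL against Sham and SNL plus UNC0638 against SNL. The 2 comparisons share the SNL libraries, so that their values are given side by side and not counted against each other. Mrpl10, Mrpl12, Mrpl48, Mrps10 and Mrps23 were lower in both. For Mrps10 the values were -0.72 (SE 0.27, adjusted p = 0.0436) and -1.31 (SE 0.29, adjusted p = 0.00782), and for Mrps23 -0.30 (SE 0.11, adjusted p = 0.0359) and -0.95 (SE 0.11, adjusted p = 0.000465). The call of these 2 genes with ligation was lost without replicate 1, 2 or 4 of Sham and without replicate 2, 3 or 4 of SNL, that of Mrps10 also without replicate 2 or 3 of SNL plus UNC0638. Mrpl52, a large subunit protein without a bacterial counterpart, was the 1 member called in opposite directions. It had 423, 387, 447 and 475 in Sham, 527, 521, 525 and 580.1 in SNL and 354, 339 and 414 in SNL plus UNC0638. The SNL libraries lay above all others, with a log2 fold change of 0.32 (SE 0.11, adjusted p = 0.0274) against Sham and -0.55 (SE 0.11, adjusted p = 0.00581) for SNL plus UNC0638 against SNL. The rise was lost without replicate 1 or 2 of Sham or replicate 1 or 4 of SNL, and the decrease held in all of these fits. Against Sham, SNL plus UNC0638 had a log2 fold change of -0.23 for this gene (SE 0.11, adjusted p = 0.108).

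A few more members stood apart from the rest and are named after their values were seen. Mrpl23, a protein at the exit of the peptide tunnel, had 203, 251, 148 and 211 in Sham, 294, 274, 211 and 316 in SNL and 178, 170.2 and 214 in SNL plus UNC0638. Of the 4 SNL libraries, 3 were above all Sham libraries but the test was not passed, with 0.44 (SE 0.18, adjusted p = 0.0616) for ligation and -0.54 (SE 0.19, adjusted p = 0.0562) for UNC0638 after ligation. Without replicate 3 of Sham and SNL both were called, with 0.41 (adjusted p = 0.0279) and -0.65 (adjusted p = 0.00360). Mrps2, a small subunit protein with a bacterial counterpart, had 159, 198, 313 and 184 in Sham, 133, 189, 256 and 144 in SNL and 287, 231 and 236 in SNL plus UNC0638. The groups overlapped, with replicate 3 the highest library of Sham and of SNL, and no comparison was called. Without those libraries SNL plus UNC0638 was higher than SNL (log2 fold change 0.70, adjusted p = 0.00635) and than Sham (0.48, adjusted p = 0.0276). Mrps28, which had 20 to 53 estimated reads per library, had 30.6, 22.7, 34.3 and 38.4 in Sham, 33.9, 22.7, 30.04 and 36.5 in SNL and 39.5, 49.5 and 51.6 in SNL plus UNC0638. All SNL plus UNC0638 libraries were above all others, and the differences from SNL, 0.60 (SE 0.25, adjusted p = 0.0891), and from Sham, 0.57 (SE 0.25, adjusted p = 0.0728), did not pass the test.

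Mrps27, Mrps34 and Mrpl38 had a lower mean in SNL than in SNL plus UNC0638. Mrps34 had 273, 277, 346 and 332 in Sham, 214, 205, 228 and 196 in SNL and 256, 234 and 206 in SNL plus UNC0638. Both ligated groups lay below all Sham libraries, with a log2 fold change of -0.54 (SE 0.12, adjusted p = 0.00384) for ligation and 0.14 (SE 0.13, adjusted p = 0.454) for UNC0638 after it. Mrps27, an RNA-binding protein of the small subunit, had 202, 245, 279 and 189.8 in Sham, 150.5, 180.05, 195 and 135 in SNL and 209, 152 and 182 in SNL plus UNC0638, with -0.47 (SE 0.17, adjusted p = 0.0404) for ligation and overlapping groups. Mrpl38 was among the 3 tested members whose differences, summed over the comparisons, were smallest. It had 203, 201, 271 and 201 in Sham, 146, 189, 210.2 and 143 in SNL and 200.00, 170.2 and 159 in SNL plus UNC0638, and no comparison was called. Mrps16 and Mrps24 were the other two. Mrps16 went from 308 ± 47.98 (SD, n = 4) in Sham to 249.7 ± 19.04 (SD, n = 4) in SNL and 226 ± 35.3 (SD, n = 3) in SNL plus UNC0638. Mrps24, which has a counterpart in the head of the bacterial small subunit, went from 226 ± 21.6 (SD, n = 4) to 202 ± 23.00 (SD, n = 4) and 164 ± 10.5 (SD, n = 3). Both were lower in SNL plus UNC0638 against Sham, with -0.44 (SE 0.15, adjusted p = 0.0308) and -0.46 (SE 0.14, adjusted p = 0.0146), and neither was called in the 2 single steps. The call of Mrps16 was lost without replicate 1, 2 or 4 of Sham or replicate 2 or 3 of SNL plus UNC0638, that of Mrps24 without replicate 2 of SNL plus UNC0638.

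Mrps36 had the lowest log2 fold change of all members with ligation, -0.80 (SE 0.31, adjusted p = 0.0514), and did not pass the test. It is now known as a component of the 2-oxoglutarate dehydrogenase complex. Its values, 639, 778, 274 and 666 in Sham, 337, 316, 231 and 402 in SNL and 309, 178 and 303 in SNL plus UNC0638, overlapped because replicate 3 of Sham was lower than 3 of the 4 SNL libraries. Mrps18 exists in 3 forms that derive from 1 bacterial protein. Mrps18a is part of the large subunit, and Mrps18b and Mrps18c are part of the small subunit. Mrps18b had 472, 618, 400.5 and 590.3 in Sham, 388, 439, 321 and 389 in SNL and 303, 249 and 205 in SNL plus UNC0638, and SNL plus UNC0638 lay below both other groups. Its log2 fold change was -0.61 (SE 0.18, adjusted p = 0.0278) against SNL, a call lost without replicate 1, 2 or 4 of SNL or replicate 2 or 3 of SNL plus UNC0638, and -0.42 (SE 0.17, adjusted p = 0.0558) for ligation. Mrps18c went from 256 ± 73.3 (SD, n = 4) in Sham to 192 ± 33.1 (SD, n = 4) in SNL and 126 ± 16.8 (SD, n = 3) in SNL plus UNC0638. It was called against Sham alone, with -0.98 (SE 0.22, adjusted p = 0.00343). Mrps18a was called with ligation and against Sham, with -0.77 (SE 0.17, adjusted p = 0.00332).

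Values of the Mrpl and Mrps genes are given side by side. These are groups by symbol and not by subunit, since the Mrps group holds Mrps18a, Mrps30 and Mrps36. With ligation, 22 of 40 Mrpl genes and 12 of 27 Mrps genes fell, and the median log2 fold change was -0.38 in each. With UNC0638 after ligation, 10 of 40 and 8 of 27 fell, with medians of -0.38 and -0.29. Against Sham, 37 of 40 and 23 of 27 were lower in SNL plus UNC0638, with medians of -0.70 and -0.69. The difference between the symbol groups was not tested. The spread within groups differed by group: the median coefficient of variation of the members was 17.9% in Sham, 9.98% in SNL and 12.6% in SNL plus UNC0638.

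Other genes that a mitochondrial ribosome needs were read from lists, whose counts stand beside 23.4% of all tested genes lower and 24.8% higher with ligation, and 14.3% and 13.5% with UNC0638 after it. In SNL plus UNC0638 against Sham these shares were 26% and 25.5%. Of 7 further ribosomal proteins with other symbols, 3 fell with ligation (Chchd1, Gadd45gip1 and Ict1) and 5 were lower in SNL plus UNC0638 against Sham. With UNC0638 after ligation 0 of the 7 were called, and their median log2 fold change was -0.14. Dap3, a GTP-binding protein of the small subunit, had 455 ± 34.5 (SD, n = 4) in Sham, 429 ± 40.1 (SD, n = 4) in SNL and 436 ± 16.9 (SD, n = 3) in SNL plus UNC0638, and none of its comparisons was called. Ptcd3, an RNA-binding protein of the small subunit, had 651 ± 173 (SD, n = 4), 583 ± 120.2 (SD, n = 4) and 582 ± 18.5 (SD, n = 3), and was not called either. Of 10 mitochondrial translation factors, 7 fell with ligation, with a median log2 fold change of -0.48. Gfm1, the elongation factor that moves the ribosome along the messenger, had 729, 918, 735 and 794 in Sham, 445, 422, 461 and 414 in SNL and 559, 441 and 521 in SNL plus UNC0638. Both ligated groups lay below all Sham libraries, with log2 fold changes of -0.86 (SE 0.11, adjusted p = 0.000171) for ligation and 0.21 (SE 0.12, adjusted p = 0.198) for UNC0638 after it. Tufm, the elongation factor that brings transfer RNA to the ribosome, had 1249, 1297, 1097 and 1313 in Sham, 994, 919, 869 and 835 in SNL and 742, 608 and 659 in SNL plus UNC0638. The 3 groups did not overlap, and both steps were called, with -0.45 (SE 0.11, adjusted p = 0.00436) and -0.43 (SE 0.11, adjusted p = 0.0167). The other factor lower after UNC0638 was Oxa1l, which inserts new proteins into the inner membrane, with -0.36 (SE 0.11, adjusted p = 0.0322). The median of the 10 factors in that step was 0.08.

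Assembly factors of the mitochondrial ribosome were lower with ligation for 11 of 21 genes and higher for 2 (Mpv17l2 and Wbscr16), with a median log2 fold change of -0.31. With UNC0638 after ligation 1 of 21 was lower, Rpusd4, an RNA pseudouridine synthase (-0.64 (SE 0.14, adjusted p = 0.00745)), and the median was -0.07. Noa1, a GTPase needed for the small subunit, went from 295 ± 15.4 (SD, n = 4) in Sham to 189.5 ± 11.8 (SD, n = 4) in SNL and 225 ± 9.10 (SD, n = 3) in SNL plus UNC0638, with -0.64 (SE 0.10, adjusted p = 0.000466) for ligation. Ngrn, an RNA-binding protein, went from 1834 ± 215 (SD, n = 4) to 1067 ± 36.3 (SD, n = 4) and 818 ± 204 (SD, n = 3), with -0.77 (SE 0.14, adjusted p = 0.00117) for ligation. Of 19 genes for the charging of mitochondrial transfer RNA, most of which load an amino acid onto it, 5 fell with ligation (26.3%, near the 23.4% of all tested genes), among them Tars2 (-0.42 (SE 0.10, adjusted p = 0.00419)) and Lars2 (-0.39 (SE 0.10, adjusted p = 0.00808)). With UNC0638 after ligation 3 of the 19 rose, Ears2 (0.66 (SE 0.16, adjusted p = 0.0131)), Gatc (0.59 (SE 0.17, adjusted p = 0.0240)) and Aars2 (0.48 (SE 0.17, adjusted p = 0.0475)), 15.8% beside 13.5% of all tested genes higher, and the median was 0.17, beside 0.01 over all tested genes. Gatc, like Qrsl1 of the same list, encodes a subunit of the enzyme that converts glutamate to glutamine on a charged transfer RNA.

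Of 15 genes of mitochondrial transcription and RNA processing, 5 fell with ligation (33.3%, beside 23.4% of all tested genes). Lrpprc, which stabilises mitochondrial messenger RNA, had 3376, 3574, 3352 and 3188 in Sham, 1899, 2100.1, 2211 and 1678 in SNL and 2299.6, 1761 and 1949 in SNL plus UNC0638. Both ligated groups were below all Sham libraries, with -0.78 (SE 0.12, adjusted p = 0.000373) for ligation and 0.02 (SE 0.13, adjusted p = 0.909) for UNC0638 after it. With UNC0638 after ligation Tfam, which packs mitochondrial DNA and starts its transcription, fell (-0.54 (SE 0.15, adjusted p = 0.0243)) and Polrmt, the mitochondrial RNA polymerase, rose (0.47 (SE 0.15, adjusted p = 0.0348)). These were the only calls of the list in that step, 6.67% each way, under the 14.3% lower and 13.5% higher of all tested genes. Of 11 regulators of mitochondrial biogenesis, 2 rose and 1 fell with ligation (18.2% and 9.09%, under the 24.8% and 23.4% of all tested genes). Myc, a transcription factor of growth, had 65.4, 56.8, 108 and 58.4 in Sham, 216, 186, 203 and 181 in SNL and 163, 258 and 236 in SNL plus UNC0638. All ligated libraries were above all Sham libraries, with 1.48 (SE 0.21, adjusted p = 0.000275) for ligation. Atf5 rose (0.62 (SE 0.14, adjusted p = 0.00419)) and Esrra, a nuclear receptor that drives mitochondrial genes, fell (-0.67 (SE 0.14, adjusted p = 0.00250)). With UNC0638 after ligation Yy1 (-0.47 (SE 0.13, adjusted p = 0.0217)) and Atf4 (-0.49 (SE 0.12, adjusted p = 0.0132)) fell, 18.2% of the list beside 14.3% of all tested genes. Nrf1, the factor named for the genes of the respiratory chain, had 0.24 (SE 0.15, adjusted p = 0.208) for ligation and 0.24 (SE 0.16, adjusted p = 0.277) for UNC0638 after it.

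Genes for other mitochondrial proteins, taken as markers of mitochondrial mass, were lower with ligation for 11 of 20 and lower with UNC0638 after ligation for 6 of 20, with medians of -0.52 and -0.34. Against Sham 18 of 20 were lower in SNL plus UNC0638, 90% beside 26% of all tested genes. Hspe1, a chaperone of the matrix, had 831, 1012, 513 and 895 in Sham, 562, 502, 481 and 587 in SNL and 296, 255 and 294 in SNL plus UNC0638. SNL plus UNC0638 lay below both other groups, with -0.92 (SE 0.20, adjusted p = 0.00664) against SNL. Of the 74 tested nuclear genes of oxidative phosphorylation, 49 fell with ligation, 25 fell and 1 rose with UNC0638 after ligation, and 69 were lower in SNL plus UNC0638 against Sham. Their medians were -0.55, -0.44 and -0.97. Of 73 tested cytosolic ribosomal protein genes, 57 rose with ligation and 67 fell with UNC0638 after ligation. In SNL plus UNC0638 against Sham 13 were lower and 1 higher (17.8% and 1.37%, under the 26% and 25.5% of all tested genes). The medians of the 73 genes were 0.58, -0.73 and -0.16. The cytosolic and the mitochondrial ribosomal genes thus had opposite signs of the median with ligation and the same sign with UNC0638 after it. The difference between the gene groups was not tested.

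**Figure D5:**
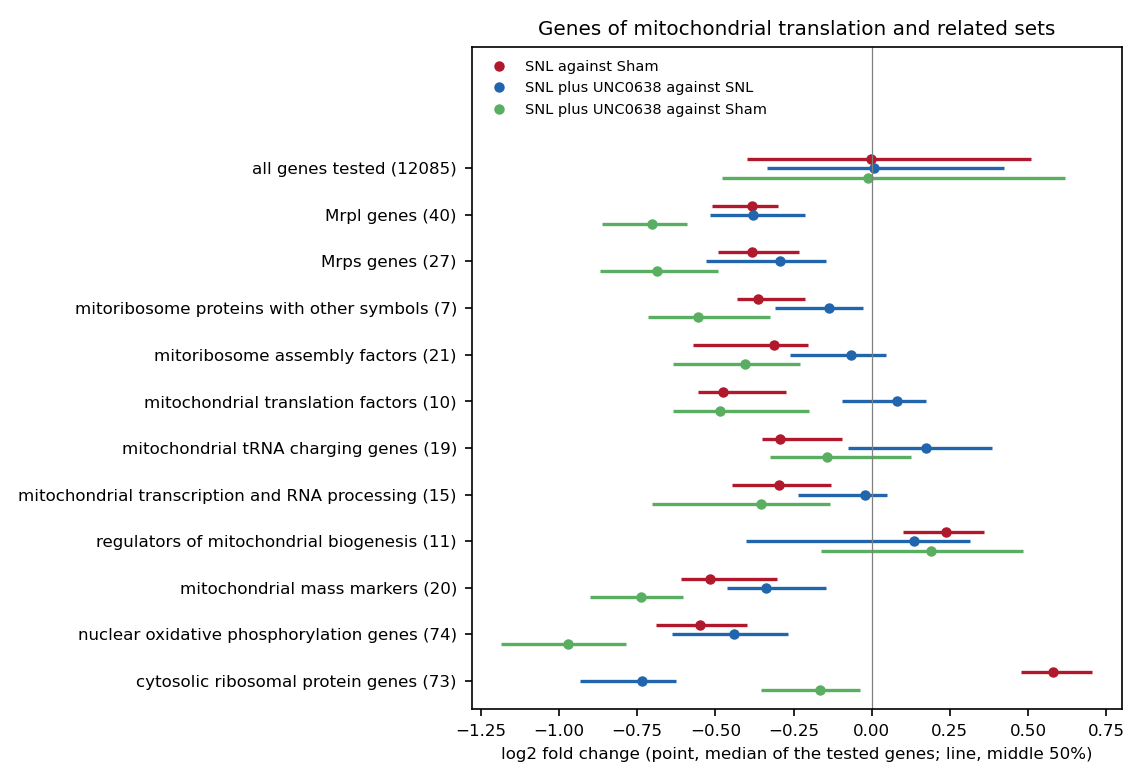
Median log2 fold change (point) and middle 50% (line) of the tested genes of each gene group (y axis, number tested in brackets) in the 3 comparisons (colours). In all 3 comparisons, the medians of the Mrpl genes, the Mrps genes, the mass markers and the oxidative phosphorylation genes lie below 0. So do those of the ribosomal proteins with other symbols, the assembly factors and the transcription and RNA processing genes. With UNC0638 after ligation these 3 medians are -0.14, -0.07 and -0.02. The translation factors lie at -0.48 with ligation and 0.08 with UNC0638 after it, and the cytosolic ribosomal genes at 0.58 and -0.73.

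Markers of cell types moved between the groups as well. Their counts stand beside 24.8% of all tested genes higher and 23.4% lower with ligation. With UNC0638 after ligation these shares were 13.5% and 14.3%, and in SNL plus UNC0638 against Sham 25.5% and 26%. Counts from the lists of 4 to 7 genes rest on few calls. The summed level of the 11 sensory neuron markers was 384161 to 502161 in Sham, 180761 to 265206 in SNL and 169724 to 277001 in SNL plus UNC0638, and 9 of 11 fell with ligation. That of 9 macrophage markers was 1886 to 4449 in Sham, 11961 to 19429 in SNL and 8557 to 15756 in SNL plus UNC0638, and 9 of 9 rose with ligation. That of 6 fibroblast markers was 24041 to 33735, 85909 to 217026 and 38017 to 93261, and 6 of 6 rose with ligation. With UNC0638 after ligation 3 of 6 fibroblast markers fell, with a median log2 fold change of -1.03, and 0 of 9 macrophage markers were called. All of these markers were above 0 in every library. In these whole ganglia, fewer cells of a type and less RNA per cell cannot be told apart. Within SNL, replicate 3 had the lowest members, the highest summed neuron markers (265206) and the lowest summed macrophage markers (11961). Within Sham, replicate 3 had the lowest members and the highest summed neuron (502161) and macrophage (4449) markers. For the summed neuron markers the third group went the other way: within SNL plus UNC0638, replicate 1 had the highest members and the highest sum (277001). It also had the lowest summed macrophage markers of that group (8557). By the median over the 11 neuron markers of the difference from the Sham mean on the log2 scale, the order within Sham was another. Replicate 3 of Sham had -0.09, the lowest of that group. By that median replicate 3 was still the highest of SNL (-0.68), and replicate 1 the highest of SNL plus UNC0638 (-0.67). With UNC0638 after ligation 2 of 11 neuron markers rose and 3 fell, with a median log2 fold change of 0.46. Of 7 Schwann cell markers 3 rose with ligation and 2 fell with UNC0638 after it, with medians of 0.35 and -0.25. Of 4 endothelial and 6 dividing cell markers, 3 and 4 rose with ligation. Of 5 satellite glia markers 1 rose and 2 fell with ligation, and of 4 tested neutrophil markers 2 were higher in SNL plus UNC0638 against Sham. The part of cell makeup in the differences between groups was not tested. Without replicate 3 of Sham and SNL, 45 members were lower with ligation, 34 with UNC0638 after ligation and 61 in SNL plus UNC0638 against Sham. Leaving out replicate 1 of SNL plus UNC0638 as well, which holds the muscle markers, these numbers were 48, 45 and 61. All genes called, either way, numbered 5823, 3356 and 6220 in the fit to all 11 libraries. They numbered 6614, 5341 and 7311 in the first of these reduced fits and 7000, 5220 and 7649 in the second.

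Promoters were read because the members moved together and because genes of mitochondrial proteins are known to be bound by NRF1, by ETS factors such as GABP and by YY1. RefSeq promoters (GRCr8, 250 bases before to 50 after the start) were matched by symbol for 54 of 68 members. On either strand, the NRF1 motif was in 5 of 54 member promoters (9.26%), beside 4.40% of the 8924 promoters of tested genes and 2.28% of all 27457 promoters of the same length. The ETS motif (CCGGAAG) was in 17 (31.5%), beside 16.1% and 9.21%. The YY1 motif (AAGATGGCG) was in 9 (16.7%), beside 3.56% and 1.92%. The Sp1 motif (GGGCGG) was in 27 (50%), beside 61.1% and 34.7%, and the E-box (CACGTG) in 6 (11.1%), beside 8.88% and 6.63%. None of the motifs contains another, though matches can overlap. At least 1 of the first 3 motifs was in 26 of 54 (48.2%), beside 22.0% and 12.5%. A match is a description of the letters and not a site.

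Members with and without one of the first 3 motifs are given side by side, with no test. Of the 26 with a match, 13 fell with ligation and 7 with UNC0638 after it, with median log2 fold changes of -0.40 and -0.39. Of the 27 tested members without, 14 and 9 fell, with medians of -0.36 and -0.39. The 250 bases before the start are shown for 6 members described above, with matches in capitals. These 6 do not stand for the members as a whole. Mrpl10, Mrpl12 and Mrps10, also lower in both steps, hold none of the first 3 motifs in these 250 bases and are not shown. In the longer window used for the counts, which runs past the start, Mrps10 has an ETS and a YY1 match. Mrps10 is thus among the 26 with a match, and Mrpl10 and Mrpl12 are not. Mrpl45, with an NRF1 match, is not shown either. Mrpl44 (chr9:88554800-88555049 on the plus strand) and Mrpl17 (chr1:169575700-169575949 on the minus strand), which fell with ligation, hold an NRF1 match, whose letters are the only capitals in the Mrpl44 sequence, and Mrpl17 also an Sp1 match. Mrps18b (chr20:2842756-2843005 on the plus strand), lower after UNC0638, holds 2 Sp1 matches, an E-box and an NRF1 match. Mrpl48 (chr1:164351377-164351626 on the minus strand), which fell in both steps, and Mrpl52 (chr15:31852686-31852935 on the plus strand), which rose and then fell, each hold an ETS match. Mrps23 (chr10:73495988-73496237 on the plus strand), the member with the smallest p after UNC0638, holds none of these letters in this window. All are written 5′ to 3′ on the strand of the gene.
Mrpl44: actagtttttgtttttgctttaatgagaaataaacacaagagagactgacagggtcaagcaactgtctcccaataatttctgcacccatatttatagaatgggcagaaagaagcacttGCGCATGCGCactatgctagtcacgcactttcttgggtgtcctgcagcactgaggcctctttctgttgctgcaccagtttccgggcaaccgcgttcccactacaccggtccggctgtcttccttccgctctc
Mrpl17: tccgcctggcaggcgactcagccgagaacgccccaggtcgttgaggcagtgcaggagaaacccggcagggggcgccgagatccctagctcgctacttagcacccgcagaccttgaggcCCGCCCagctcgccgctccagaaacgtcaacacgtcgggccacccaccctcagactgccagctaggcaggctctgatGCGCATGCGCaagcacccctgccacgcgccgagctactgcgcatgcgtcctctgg
Mrps18b: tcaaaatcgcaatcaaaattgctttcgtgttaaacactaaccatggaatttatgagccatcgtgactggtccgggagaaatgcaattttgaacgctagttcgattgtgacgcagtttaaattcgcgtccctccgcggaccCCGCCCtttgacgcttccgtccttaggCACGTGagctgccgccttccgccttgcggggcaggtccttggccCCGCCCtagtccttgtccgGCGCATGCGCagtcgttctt
Mrpl48: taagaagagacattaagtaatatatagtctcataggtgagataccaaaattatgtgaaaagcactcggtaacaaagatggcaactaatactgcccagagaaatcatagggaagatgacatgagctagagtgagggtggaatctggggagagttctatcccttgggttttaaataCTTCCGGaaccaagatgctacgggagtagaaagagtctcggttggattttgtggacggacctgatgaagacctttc
Mrpl52: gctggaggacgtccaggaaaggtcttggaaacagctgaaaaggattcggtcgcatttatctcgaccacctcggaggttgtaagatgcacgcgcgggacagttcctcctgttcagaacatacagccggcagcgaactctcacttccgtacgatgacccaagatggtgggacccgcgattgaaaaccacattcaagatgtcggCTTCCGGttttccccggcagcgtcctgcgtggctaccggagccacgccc
Mrps23: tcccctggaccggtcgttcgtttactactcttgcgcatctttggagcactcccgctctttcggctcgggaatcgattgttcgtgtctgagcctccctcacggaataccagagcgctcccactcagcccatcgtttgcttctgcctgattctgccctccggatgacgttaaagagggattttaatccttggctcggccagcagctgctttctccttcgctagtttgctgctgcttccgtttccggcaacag

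How reads shared with processed pseudogenes, of which ribosomal protein genes have many, and reads of overlapping genes on the other strand were assigned has no source here, and the values of single members carry this uncertainty. The scaled counts are not divided by length, and their order between genes is not an order of transcript amounts.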

How the data were processed

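RNA of 11 rat dorsal root ganglion samples was measured by RNA-seq, from stranded total RNA libraries depleted of ribosomal RNA, read from 1 end over 50 bases, per the labels. Per the submitters' processing notes, the tools were TopHat2 2.0.9 and Cuffdiff 2.1.1 and the genome build rn4; annotation, strand use and how shared reads were assigned: not given in the sources used here. Each deposited signal value is a gene's count after the authors' division by 1 factor per library: 98.8% to 99.3% of a library's low values (up to 50 steps) are whole multiples, within 0.01, of 1 step, from which reads were estimated.

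Groups were taken from the titles. The values are not raw counts, so that limma (3.58.1, R 4.3.3, statmod 1.5.0) was fitted to log2(value + 1), as 1 fit of 3 group means to all 11 libraries, with eBayes (trend and robust), two-sided, for the 12085 genes that reached 10 in 3 or more libraries. Fold changes carry the added 1 and understate those of low genes. Sdc2 and Pcdhgc5, at 0 in every library of 1 group, are not in the fit, a choice made with their values known. The fit was tested on simulated data. The members, the lists and the rules were chosen with earlier results of these data known.

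Members were named by these rules: the 6 highest and 6 lowest called changes without overlap in each comparison, the 3 Mrpl and 3 Mrps genes with the highest scaled counts, those called in both steps, those not tested, the 3 with the smallest summed changes, and Mrpl10, Mrpl12, Mrps18a, Mrps18b, Mrps18c and Mrps30. From each list of the pathway, up to 3 called genes with the smallest p, or else the gene with the highest scaled count, were named. Mrps2, Mrps27, Mrps28, Mrps34, Mrps36, Mrpl23 and, from the lists, Dap3, Aars2, Nrf1, Mpv17l2 and Wbscr16 were named after their values were seen. The value of 1 gene from the lists is not reported here. Alternatives were other scalings, filters and pseudocounts, limma-voom, a replicate block, fits of 2 groups, and fits without each library or without sets of libraries.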

Additional observations from a re-analysis of the deposited data

Results flagged for a closer look

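In 7 of 54 groups of 4 libraries (Sham and SNL, for 26 named members and the mean level of the tested members), 1 library lay far from the other 3, with a gap of over 0.829 of the group's range. Chance gives this in about 1 group in 20. In SNL, Mrpl10 was low in replicate 3 (422.7, the others 514 to 531), Mrpl44 was high in replicate 1 (279, the others 252 to 255), Mrpl52 was high in replicate 4 (580.1, the others 521 to 527) and Mrps15 was high in replicate 3 (451, the others 396 to 401). In Sham, replicate 3 was the library apart each time: it was high for Mrpl38 (271, the others 201 to 203) and low for Mrps24 (193, the others 234 to 238) and Mrps30 (269.6, the others 395 to 414). Without SNL replicate 3 the call of Mrpl10 with ligation was lost, and without SNL replicate 4 that of Mrpl52.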

How the results depend on the processing

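Medians of the members kept their sign under every alternative run. The number of members lower moved more. SNL against Sham: 34 fell to 18 with upper-quartile scaling, and ranged from 16 to 48 without single libraries. SNL plus UNC0638 against SNL: 18 became 34 without replicate 3 of Sham and SNL, 45 without these and replicate 1 of SNL plus UNC0638 (chosen after seeing the data), and 9 to 28 without single libraries. SNL plus UNC0638 against Sham: 60 ranged from 49 to 61 without single libraries. Mrpl23 joined Mrpl52 as higher in SNL (2 in place of 1) with TMM scaling, with upper-quartile scaling and in both fits without several libraries, and the range was 0 to 2 without single libraries. Mrps2 was the 1 member higher in SNL plus UNC0638 against SNL in both fits without several libraries, and 1 against Sham without the 2 replicates 3; the range without single libraries was 0 to 1 and 0 to 0. The members' medians ranged from -0.48 to -0.33, -0.41 to -0.29 and -0.81 to -0.63 without single libraries, and that of SNL plus UNC0638 against Sham was -0.88 without the 3 libraries. All genes called numbered 4794 to 6510, 2032 to 4468 and 4589 to 6951 without single libraries. For SNL plus UNC0638 against SNL, 3356 became 5341 and 5220 without the 2 and the 3 libraries.

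Values near 0 changed sign: Mrpl34 with ligation (-0.01) was 0.021 with TMM, 0.055 with upper-quartile scaling and -0.16 to 0.068 without single libraries. Mrpl38 with UNC0638 after ligation (0.05) was -0.046 to 0.15 without single libraries, and Mrps15 (-0.05) was -0.18 to 0.032. The cause of these changes was not tested.

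Correlations of the deviations of same-numbered libraries ran from -0.45 (replicate 3 of SNL and SNL plus UNC0638) to 0.43 (replicate 3 of Sham and SNL) and were over 0.1 in 2 of 10 pairs, so that the numbers were not taken to pair the libraries. With a replicate block, members lower numbered 29, 11 and 55, all genes called in SNL plus UNC0638 against SNL numbered 2126, and Mrpl38 in that comparison was -0.011. Count models (edgeR, DESeq2) were not run, since the values are scaled. At 20 to 53 estimated reads per library, Mrps28 had the lowest depth of the tested members.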

Other observations

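Each ligated library was compared with the range of the 4 Sham libraries, gene by gene. Of 67 tested members, 28, 40, 47 and 33 were below that range in the SNL libraries, and 57, 64 and 57 in the SNL plus UNC0638 libraries. Of all 12085 tested genes, 34.6%, 31.4%, 31.3% and 34.9% were below it in the SNL libraries, and 32.6%, 39.3% and 37.1% in the SNL plus UNC0638 libraries. Above it were 1 to 4 members in SNL and 1 in each SNL plus UNC0638 library, beside 29.3% to 36.2% of all tested genes in these 7 libraries.

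Replicate 3 was the lowest library of Sham and also of SNL for 42 members, among them Mrpl12, Mrps7, Mrps10 and Mrps23. For 5 members it was instead the highest in both groups: Mrpl4, Mrpl38, Mrps2, Mrps27 and Mrps34. Mrps2 and Mrpl38 were 313 and 271 in Sham replicate 3, where the other Sham libraries were 159 to 198 and 201 to 203. Mrpl38, Mrps2, Mrps27 and Mrps34 are also members whose mean was not lowest in SNL plus UNC0638, while that of Mrpl4 was.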
